A study of Homo sapiens with 2 samples.

Results

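The genes described here encode unconventional myosins, actin-related proteins, tropomyosins, focal adhesion and LIM adaptor proteins, caveola coat proteins, annexins and calpains. They were taken from the platform's probe annotation by symbol: MYO followed by a digit, or the prefixes MYH, MYL, ACTN, ACTR, ARPC, TPM, TNS, PDLIM, FLN, CAV1, CAV2, CAVIN, TLN, FERMT, LIMA, LIMS, PARV, ANXA and CAPN, plus VCL, ZYX, PXN, AJUBA, VIM and WWC1, with antisense symbols left out. This gave 101 genes of the 13763 named genes in the series. No named probe set had the prefix MYH, ACTN, ARPC, FLN, CAV1, CAV2 or PARV, and the only MYL genes were 3 myosin light chain kinases and MYLIP. Conventional myosin II, alpha-actinins, filamins, caveolins 1 and 2 and parvins are therefore not analysed here, and the title "actomyosin" covers the unconventional myosins and actin-binding proteins only. A shared prefix also brought in 11 genes that belong to none of these families or are pseudogenes or RNA genes, among them the drug-metabolising methyltransferase gene TPMT and the ubiquitin ligase gene MYLIP.

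The study used S2-013, a line of human pancreatic cancer cells, on Affymetrix whole-transcript arrays. The inhibitor sample was S2-013 cells with HOXB7 knocked down, a rescue-HOXB7 plasmid and a MEK inhibitor. The control sample was the same knockdown and plasmid with no MEK inhibitor. There was 1 array per condition, so there is no replicate error and no test was possible; each difference is that of 2 cultures. The arrays were run, per the series' design text, to look for pathways under HOXB7-MEK control.

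MEK is the kinase that activates ERK. ERK signalling acts on cell adhesion and motility through transcription and through phosphorylation of adhesion and actin regulators. Focal adhesions join integrins in the membrane to actin filaments: talins and kindlins (FERMT genes) bind integrin tails, vinculin and tensins bind actin, and PINCH proteins (LIMS genes) form a complex with integrin-linked kinase and parvins. Caveolae are small membrane pits coated by caveolins and cavins. Annexins are calcium-dependent binders of membrane phospholipids, and calpains are calcium-dependent proteases.

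Levels are the deposited values, taken to be on a log2 scale, and a difference is the log2 level with the inhibitor minus the log2 level without it. Genes whose brighter array was under 4.78 were left out of counts; this floor is the midpoint (median) of the gene means over all named genes. It was reached by 63 members and missed by 38. Of the 7164 genes above the floor in the whole table, 0.628% were higher with the inhibitor by 2-fold or more and 1.05% were lower by as much. Among the 63 members, 3 were higher by 2-fold or more (4.76%) and 5 were lower by as much (7.94%). At 1.5-fold, 10 members were higher (15.9%) and 7 lower (11.1%), against 4.62% and 3.6% of all genes, and 46 lay within 1.5-fold. The members were chosen with earlier results of these data known, so their larger shares may partly follow from that choice. Without genes that have near-identical copies, whose values are uncertain, 2 members were higher and 3 lower at 2-fold, and 8 higher and 4 lower at 1.5-fold. PDLIM4 and ACTR3C, counted as lower, were above the floor only without the inhibitor. In total RNA of a culture, fewer cells that express a gene and less of its RNA per cell cannot be told apart.

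Differences above 0 were read for 42 of the 63 members (66.7%), against 53.9% of all genes. The median difference was 0.15 over the members and 0.03 over all genes, and the median size of the difference, whatever its sign, was 0.27 and 0.19. The members' median level was 6.82, against 6.38 for all genes. Probe sets of the same gene give the only error that can be read from these arrays. Over 577 pairs of such probe sets from 175 genes, the median disagreement between differences was 0.12, and 95% of pairs were no more than 0.64 apart. This covers probe error and not the variation between cultures, and pairs from 1 gene are not independent. Differences between -0.64 and 0.64 are within this disagreement.

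**Figure D1:**
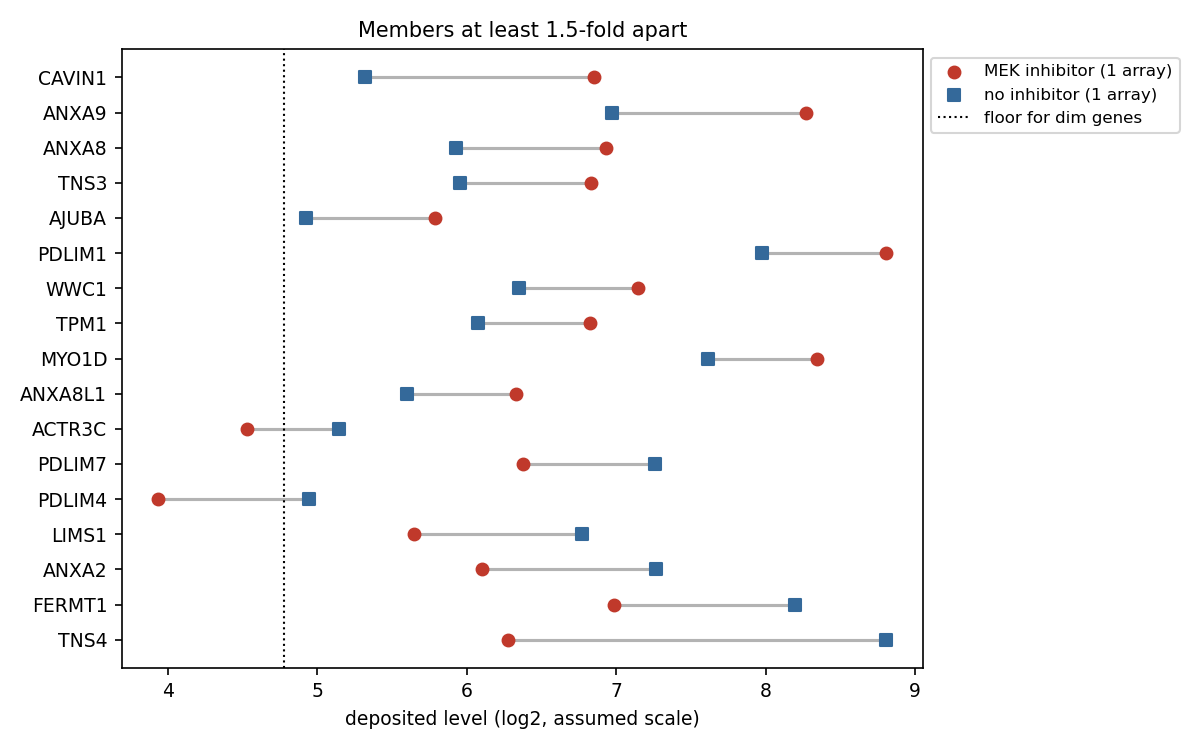
Deposited log2 levels of the 17 members at least 1.5-fold apart, 1 point per array, with the MEK inhibitor (circles) and without it (squares); the dotted line is the floor of 4.78. CAVIN1 has the largest gap upwards (6.85 with and 5.32 without the inhibitor) and TNS4 the largest downwards (6.28 with and 8.81 without), and only PDLIM4 and ACTR3C cross the floor.

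The 4 named epithelial markers were above the floor on both arrays. EPCAM read 10.5 on each array, KRT18 read 11.3 with the inhibitor and 11.6 without it, and KRT19 read 8.87 with and 8.94 without. KRT8 was dimmer, with 6.33 on the inhibitor array and 6.52 on the other, and CDH1 is unnamed here. No named endothelial marker reached the floor (3 named), nor did the fibroblast markers DCN and LUM, while DES (-0.54) and the monocyte marker CD68 (-0.43) did. Few markers of other cells were named: 3 of 10 for fibroblasts and smooth muscle and 2 of 4 for leukocytes. For skeletal and cardiac muscle, 0 of 7 were named. The MEK-ERK output gene DUSP6 read 5.27 with the inhibitor and 6.53 without it, and HOXB7 read 5.85 with the inhibitor and 5.84 without it.

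The opposite differences of the tensins were among the largest in the set. Tensins bind integrin tails at focal adhesions, and TNS4 is a short tensin that lacks the actin-binding part of its relatives. In mammary epithelial cells, epidermal growth factor is known to switch expression from TNS3 to TNS4. TNS4 read 6.28 with the inhibitor and 8.81 without it and was 5.78-fold lower, with only 2 genes lower among the 7164 genes. TNS3 read 6.83 with the inhibitor and 5.95 without it, 1.83-fold higher, a difference of 0.88. TNS1 and TNS2 were below the floor on both arrays, with differences of 0.11 and -0.11. Each tensin gene had 1 probe set, so neither difference has a second reading.

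Of the caveola coat genes, 1 was past 1.5-fold. CAVIN1, which coats caveolae together with caveolins, read 6.85 with the inhibitor and 5.32 without it. This 2.88-fold higher level was the highest difference among the members and the 9th from the highest of all genes. CAVIN2, which binds phosphatidylserine and helps to shape caveolae, read 4.74 with the inhibitor and 5.19 without it (-0.45). It was above the floor only without the inhibitor, and its difference is within the probe set disagreement. CAVIN4, the muscle cavin, was below the floor (0.33). Among 6 measured caveola partners, 3 were higher and 3 lower, with a median difference of -0.07. ROR1, a receptor pseudokinase reported to scaffold cavin 1 and caveolin 1 in lung cancer cells, read 7.20 with the inhibitor and 6.48 without it (0.73). The membrane-bending protein genes PACSIN3 and PACSIN2 had differences of 0.55 and -0.36, and EHD2, the ATPase at the caveola neck, had 0.04.

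**Figure D2:**
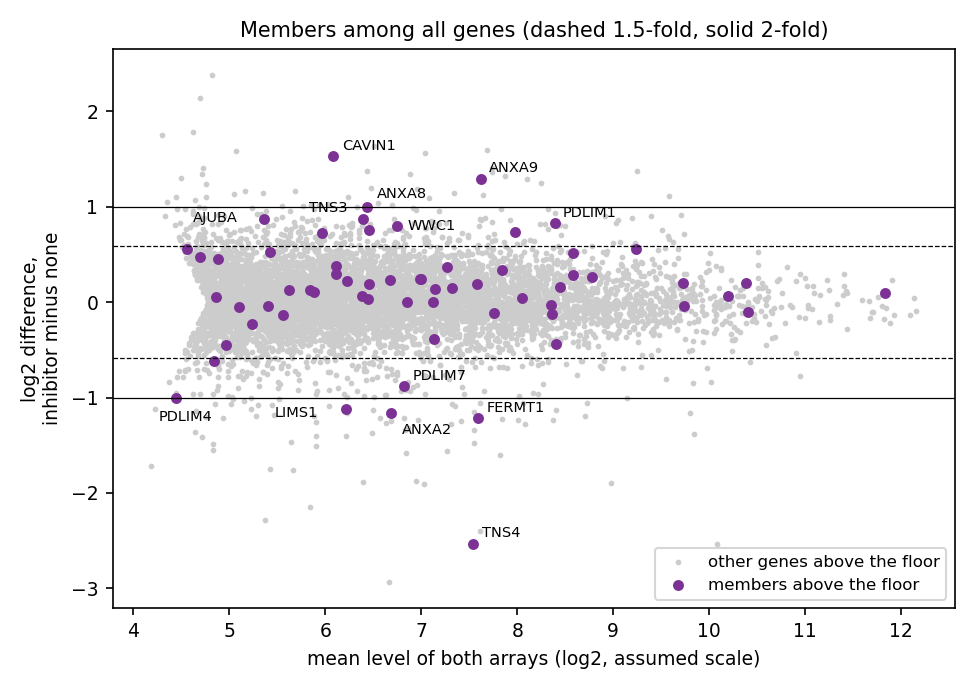
Log2 difference, inhibitor minus none, against the mean level of both arrays for the 7164 genes above the floor, 1 point per gene, with the 63 members in purple and lines at 1.5-fold and 2-fold. CAVIN1 (1.53) and ANXA9 (1.29) stand highest among the members and TNS4 (-2.53) lowest.

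Core focal adhesion genes were spread around 0: of 10 above the floor, 5 were higher and 5 lower, and the median difference was 0.03. FERMT1, the kindlin of epithelial cells, read 6.98 with the inhibitor and 8.20 without it and was 2.32-fold lower. FERMT2, the broadly expressed kindlin, had a difference of 0.47 (4.93 with and 4.46 without), and FERMT3, the kindlin of blood cells, had 0.56 (4.83 with and 4.28 without). FERMT2 and FERMT3 were above the floor only with the inhibitor, so their values without it are dim, whereas FERMT1 was above it on both arrays. The kindlin differences therefore had opposite signs, those of FERMT2 and FERMT3 within the probe set disagreement.

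LIMS1, which encodes PINCH1 of the integrin-linked kinase complex, read 5.65 with the inhibitor and 6.77 without it, 2.18-fold lower. LIMS3 is a near-identical copy of part of it, and its probe sets had differences of 0.07 and -0.17. How the signal is shared between these copies is unknown, so the value of LIMS1 is uncertain. The scaffold gene PXN (paxillin) had a difference of -0.44, with 8.18 on the inhibitor array and 8.62 on the other. Talin 1 (TLN1) had a difference of 0.00, vinculin (VCL) had -0.10 and zyxin (ZYX), which gathers at strained filaments, had 0.25. These genes do not stand for the whole link from integrin to actin, since the kindlin gene FERMT1 was lower. The integrin genes looked for and the integrin-linked kinase gene have no named probe set here. The talin rod-domain gene TLNRD1 had 0.15. TLN2 and LIMS2 were below the floor, with differences of 0.14 and -0.01.

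The PDZ-LIM and LIM adaptors, which anchor kinases and signalling proteins to actin through alpha-actinin or actin itself, had 4 of 7 members past 1.5-fold, 2 in each direction. That is 28.6% each way in a group of only 7, against 4.62% of all genes higher and 3.6% lower. PDLIM1 (CLP36) read 8.80 with the inhibitor and 7.98 without it, 1.77-fold higher. PDLIM7 (Enigma) read 6.38 with the inhibitor and 7.26 without it, 1.84-fold lower. PDLIM4 (RIL) was 2.01-fold lower, with 3.94 with the inhibitor, below the floor, and 4.94 without it. The group's median of -0.04 lies between these opposite values and describes none of them. PDLIM5 had a difference of -0.23 and PDLIM2, which also acts on NF-kappaB subunits, had -0.04. LIMA1 (EPLIN), which stabilises filaments and links them to cadherin complexes, had 0.29. PDLIM3 was below the floor (0.22).

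AJUBA, a LIM protein that binds the Hippo kinases LATS1 and LATS2, read 5.79 with the inhibitor and 4.92 without it, 1.82-fold higher. WWC1 (KIBRA), a scaffold that activates the Hippo kinases, read 7.15 with the inhibitor and 6.35 without it, 1.74-fold higher. Of 17 measured Hippo partners of both, 8 were higher and 9 lower, with a median difference of -0.02. The largest were those of the WWC1 relative WWC3 (0.62), the TEAD cofactor gene VGLL1 (0.56) and the coactivator gene YAP1 (-0.45), and WWC3 was the only one past 1.5-fold. WWC3 was above the floor only with the inhibitor, and its difference is within the probe set disagreement.

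Vimentin (VIM), the intermediate filament protein of mesenchymal cells, was lower in each of its 3 probe sets. The probe set with the highest mean read 6.94 with the inhibitor and 7.33 without it (-0.39). The others had -0.61 and -0.85. Only the last 2 pass 1.5-fold, so the count of lower members depends on the probe set chosen for VIM.

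**Figure D3:**
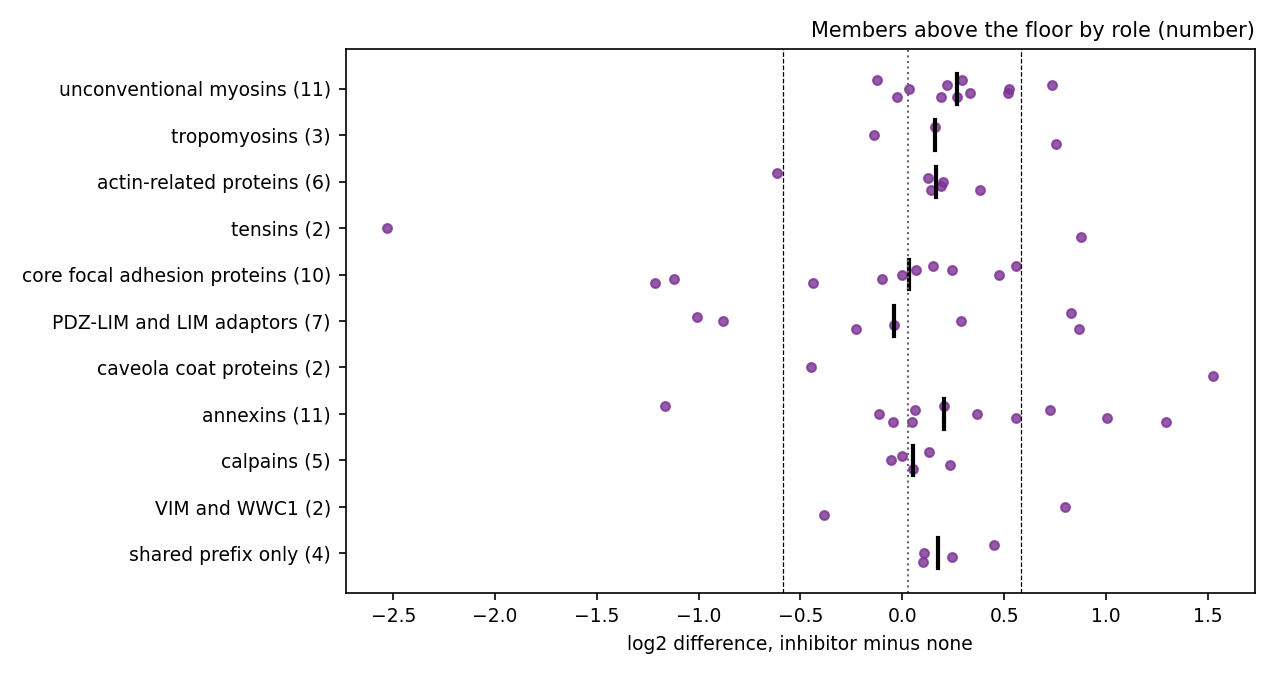
Log2 difference, inhibitor minus none, of the 63 members above the floor by role, 1 point per gene, with a bar at the median of groups of 3 or more, dashed lines at 1.5-fold and a dotted line at the median of all genes (0.03). Unconventional myosins lie mostly to the right (9 of 11 above 0, against 53.9% of all genes). Calpains lie near 0, and the tensin and PDZ-LIM groups hold points past 1.5-fold on both sides.

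Among 11 annexins above the floor, 3 were higher by 1.5-fold or more (27.3%, against 4.62% of all genes). Their median difference was 0.20, and 8 of 11 were above 0 (72.7%, against 53.9% of all genes). ANXA9, an annexin with degenerate calcium-binding sites, read 8.27 with the inhibitor and 6.97 without it and was 2.45-fold higher. ANXA8, an annexin of late endosomes, read 6.93 with the inhibitor and 5.93 without it. Its difference of 1.003 is under 1 once the median difference of all genes or a loess trend is subtracted. Its near-identical copy ANXA8L1 read 6.33 with the inhibitor and 5.60 without it (0.73), and these copies may share signal, so they may not be separate observations. ANXA3 read 9.51 with the inhibitor and 8.95 without it (0.56), and ANXA6, the annexin with a duplicated core, had 0.37. The other annexins above the floor differed little: ANXA7 had 0.20, ANXA4 0.06, ANXA1, the glucocorticoid-induced annexin, 0.05, ANXA5, which binds phosphatidylserine, -0.04 and ANXA11 -0.11. ANXA10 and ANXA13 were below the floor (0.28 and 0.36).

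ANXA2, which joins the membrane to cortical actin as a complex with S100A10, was the only annexin at least 1.5-fold lower. On its probe set the level was 6.10 with the inhibitor and 7.27 without it, 2.24-fold lower. The pseudogene ANXA2P2, whose sequence is nearly that of ANXA2, read 11.9 with the inhibitor and 11.8 without it (0.10). The other copies ANXA2P1 and ANXA2P3 were below the floor, with differences of -0.61 and -0.26. These readings of near-identical sequences do not give 1 answer, so the value of ANXA2 is uncertain. The partner gene S100A10 had a difference of 0.48, and of 6 measured partners of annexins and calpains 4 were higher and 2 lower, with none past 1.5-fold. The largest after S100A10 were AHNAK, the giant protein held at the membrane by annexin A2 and S100A10 (-0.41), and S100A4 (-0.25).

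**Figure D4:**
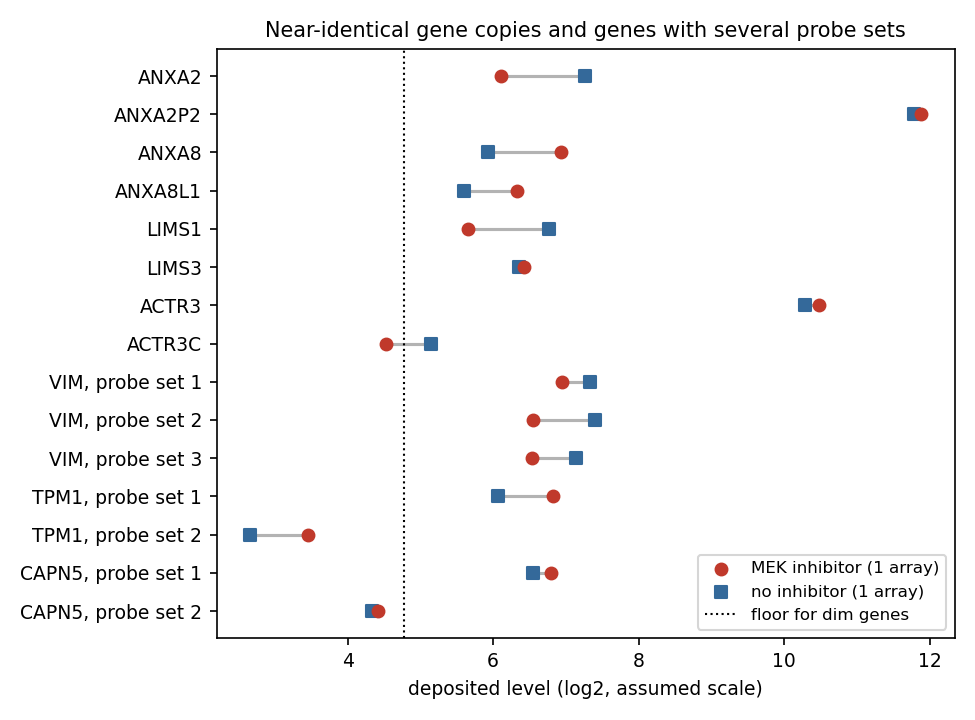
Deposited log2 levels with the inhibitor (circles) and without it (squares) for members with near-identical copies and for members with several probe sets, 1 point per array. ANXA2 and LIMS1 differ by over 1 while ANXA2P2 and LIMS3 nearly coincide, ANXA8 and ANXA8L1 are both higher with the inhibitor, and all 3 VIM probe sets are lower with it.

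Promoter sequences from RefSeq (GRCh38.p14) were available for 52 of the 63 members above the floor and for 82 of all 101. The 250 bases before the start of each were searched on both strands for the AP-1 site TGACTCA, the ETS core CGGAAG, the TEAD site GGAATG and, by name, the CArG box bound by serum response factor, which drives many actin cytoskeleton genes. No printed motif overlaps another. The AP-1 letters were in 1 of the 52 promoters, that of ANXA2 (1.92%), against 2.67% of 5847 genes above the floor. The ETS core was in 10 (19.2%), against 29.1%, and the TEAD letters were in 5 (9.62%), against 9.39%. The CArG box was in 3 (5.77%), against 1.06%, and none of these 3 members was past 1.5-fold. Of the 13 members past 1.5-fold with a promoter, 4 held one of the 4 motifs: ANXA2 the AP-1 site, PDLIM7 and TPM1 the ETS core, and AJUBA the TEAD site. The share of all genes holding any of the 4 was not worked out, so this count shows no excess. TNS4, CAVIN1, FERMT1 and ANXA8 were not matched. A match in these letters is a description and no evidence of binding. Shown are the promoters of the members past 1.5-fold with the AP-1 and TEAD letters, and the stretch around the CArG box of the 3 members that hold it, all 5′ to 3′ on the gene's strand with the motif in capitals. They lie at chr15:60397987-60398236 (minus strand) for ANXA2, chr14:22976843-22977092 (minus) for AJUBA, chr10:73414258-73414307 (minus) for ANXA7, chr15:59372873-59372922 (minus) for MYO1E and chr19:16067345-16067394 (plus) for TPM4.
ANXA2: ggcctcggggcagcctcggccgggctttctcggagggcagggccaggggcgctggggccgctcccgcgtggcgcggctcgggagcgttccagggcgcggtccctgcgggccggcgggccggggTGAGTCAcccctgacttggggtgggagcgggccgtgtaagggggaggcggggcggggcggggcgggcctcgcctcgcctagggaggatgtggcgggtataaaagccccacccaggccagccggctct
AJUBA: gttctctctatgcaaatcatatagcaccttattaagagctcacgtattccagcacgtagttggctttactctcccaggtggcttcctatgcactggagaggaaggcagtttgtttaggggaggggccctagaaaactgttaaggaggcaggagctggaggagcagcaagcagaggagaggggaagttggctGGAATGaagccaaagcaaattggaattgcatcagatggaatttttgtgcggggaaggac
ANXA7: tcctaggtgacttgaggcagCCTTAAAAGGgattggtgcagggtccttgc
MYO1E: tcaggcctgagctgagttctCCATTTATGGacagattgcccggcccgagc
TPM4: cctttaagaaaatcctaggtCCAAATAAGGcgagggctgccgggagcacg
The AP-1 letters of ANXA2 begin 127 bases before the start and the TEAD letters of AJUBA 59 bases before it. The CArG boxes begin 229 bases before the start in ANXA7 (difference 0.20), 31 in MYO1E (-0.02) and 173 in TPM4 (0.16).

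Unconventional myosins, which carry membranes and other cargo along actin, were mostly higher: 9 of 11 above the floor, with a median difference of 0.27. This share is 81.8%, against 53.9% of all genes. The unconventional myosins include the class I myosins, which tether membranes to actin. MYO1D read 8.35 with the inhibitor and 7.61 without it, 1.66-fold higher. It was the only myosin past 1.5-fold (9.09%, against 4.62% of all genes higher by as much). MYO1C read 8.84 with the inhibitor and 8.32 without it (0.52), and MYO1E, found at adhesions and sites of endocytosis, differed by -0.02. The recycling endosome motor gene MYO5B read 5.69 with the inhibitor and 5.16 without it (0.52). MYO5C, of class V as is MYO5B, had 0.29, and MYO6, the motor that moves towards the minus end of filaments, had 0.33. MYO5A, also of class V, has no named probe set here. MYO10, the motor of filopodia, had 0.27, and MYO9A and MYO9B had 0.22 and 0.19. MYO18A, which acts at the Golgi, had 0.03 and the mitochondrial myosin gene MYO19 had -0.13. Of these differences only that of MYO1D exceeds the probe set disagreement of 0.64. The 11 myosins below the floor had differences from -0.29 to 0.42.

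Tropomyosins, which wrap filaments and set which myosins and other proteins can bind them, had 3 genes above the floor. TPM3 has no named probe set here. TPM1 read 6.83 with the inhibitor and 6.07 without it, 1.69-fold higher (0.75). Its second probe set (0.79) was below the floor on both arrays. TPM4 had 0.16 and TPM2 -0.14. All 3 myosin light chain kinase genes were below the floor. Chosen after its values were seen, MYLK, the kinase that activates contractile myosin II, read 4.15 with the inhibitor and 3.16 without it (0.99), the largest difference among the members below the floor, which otherwise ranged from -0.61 to 0.50.

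Actin-related proteins act in different places. ACTR3, a subunit of the ARP2/3 complex that nucleates branched actin, read 10.5 with the inhibitor and 10.3 without it (0.20). The complex's ACTR2 and ARPC genes have no named probe set here. The ACTR3 relative ACTR3C read 4.53 with the inhibitor and 5.15 without it (-0.62). ACTR3C ends below the floor and shares sequence with ACTR3 and ACTR3B, so its value is uncertain. ACTR10, a subunit of the dynactin complex, had 0.38. The nuclear chromatin remodelling subunits ACTR5 and ACTR8 (INO80 complex) and ACTR6 (SRCAP complex) had 0.19, 0.14 and 0.12. ACTR3B, ACTRT2 and ACTRT3 were below the floor, from -0.23 to -0.03.

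The measured calpains were the group with the smallest differences. The classical calpain genes CAPN1 and CAPN2, and CAPN3, have no named probe set here and are not covered. The 5 above the floor ranged from -0.06 (CAPN12) to 0.24 (CAPN5), with a median of 0.05, and none was past 1.5-fold. CAPN15 had 0.13, CAPN10 0.05 and CAPN7 read 6.85 with the inhibitor and 6.86 without it. The second probe set of CAPN5 was below the floor (0.08), and the inhibitor gene of the classical calpains, calpastatin (CAST), had 0.13. The 6 calpains below the floor ranged from -0.35 to 0.50. The genes that only share a prefix had 4 members above the floor, all between 0.10 and 0.45: the pseudogene TPM3P9 (0.45), TPMT (0.25), MYLIP (0.10) and ANXA2P2. TPM3P9 was above the floor only with the inhibitor, and its difference is within the probe set disagreement.

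**Figure D5:**
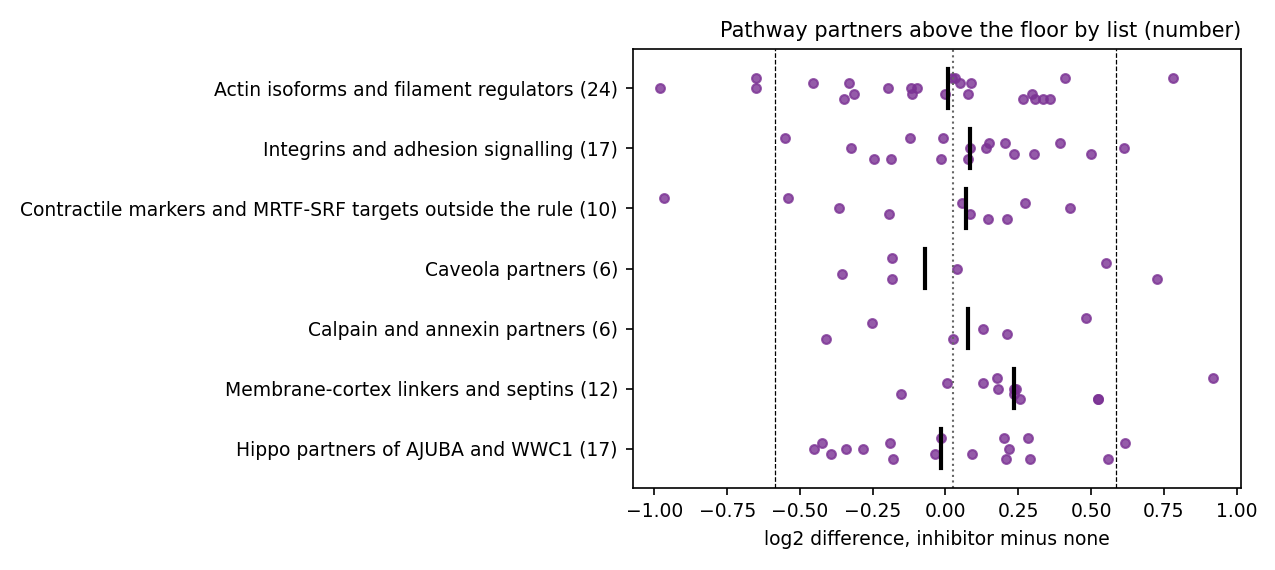
Log2 difference, inhibitor minus none, of pathway partners above the floor in 7 lists of genes outside the families, 1 point per gene, with a bar at the list median, dashed lines at 1.5-fold and a dotted line at the median of all genes (0.03). Most points lie between the dashed lines. The list of membrane-cortex linkers and septins has 11 of 12 points above 0, against 53.9% of all genes.

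The members were set beside 151 gene symbols of the same pathways. These include PTRF and SDPR, older symbols of the members CAVIN1 and CAVIN2, which were not measured as partners. Of the 151 symbols, 106 were named and 91 above the floor. None was past 2-fold; 5 (5.49%) were higher by 1.5-fold or more and 4 (4.40%) lower by as much, near the 4.62% and 3.6% of all genes. Their median difference was 0.08. The shares past 1.5-fold were lower than those of the members, and no test of this difference was run. Members and partner lists were both chosen with earlier results known, so the difference may partly follow from that choice.

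Of 24 actin filament regulators, 12 were higher and 12 lower (median 0.01). The formin gene FMNL2, which elongates filaments in protrusions, read 7.53 with the inhibitor and 8.51 without it (-0.98). The filament-severing protein gene GSN (gelsolin) read 6.14 with the inhibitor and 5.36 without it (0.78). VASP, which extends filaments at adhesions, had -0.65, as had DSTN. DSTN read 4.72 with the inhibitor, below the floor, and 5.37 without it.

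Among 17 genes of adhesion signalling, 10 were higher and 7 lower (median 0.08). The focal adhesion kinase gene PTK2 read 5.72 with the inhibitor and 5.11 without it (0.61). Its relative PTK2B read 6.79 with the inhibitor and 7.34 without it (-0.55). Both differences are within the probe set disagreement. CSRP1, a LIM protein of filaments, had 0.50, but was above the floor only with the inhibitor and within the probe set disagreement. Of 10 contractile markers and targets of serum response factor, 6 were higher and 4 lower (median 0.07). SMTN (smoothelin) read 4.35 with the inhibitor, below the floor, and 5.32 without it (-0.97), DES had -0.54 and the coactivator gene MRTFB 0.43. Of 12 membrane-cortex linkers and septins, 11 were higher (91.7%, against 53.9% of all genes), with a median of 0.23. SEPTIN11 read 5.75 with the inhibitor and 4.83 without it (0.92), ADD1 (adducin 1) had 0.53, SEPTIN7 0.52 and EZR (ezrin) 0.23, and SEPTIN2 was the one lower gene (-0.15).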

How the data were processed

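Total RNA of 2 cultures was measured on 1 array each, and titles gave the groups. The values the authors deposited are 1 number per probe set and array, taken from their range (1.16 to 13.4) to be log2, and used unchanged. The tool listed per the submitters' processing notes is Affymetrix Expression Console 1.3; how it corrected background, summarised probes and normalized arrays was not given in the sources used here. Medians were nearly equal (3.46 with the inhibitor and 3.49 without); bringing arrays to a common scale removes any difference in total RNA. Without detection calls it is unknown which dim probe sets exceeded background, and the single array per group limits the precision.

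Of 53617 probe sets, 16098 had 1 gene symbol, none had several and 37519 are unnamed here. After 1287 small RNA probe sets were set aside, the probe set with the highest mean was used per gene. Genes under the floor of 4.78 in both arrays were left out of counts and medians. With 1 array per group no test was run: counts past 2-fold and 1.5-fold and medians are set beside those of all genes. The members and lists were chosen with earlier results of these data known. Named were members past 1.5-fold, the highest and lowest of each role, TNS4, CAVIN1, AJUBA, WWC1 and VIM, and up to 3 genes of each partner list, with other members for completeness; the partners VASP, EHD2, CAST, EZR and SEPTIN2 were added after their values were seen. A further list of partners is not reported here. Alternatives were 2 scalings (the median difference or a loess trend taken off), no filter or a 75th percentile filter, averaged probe sets, a 3-fold threshold, and leaving out prefix-only genes, genes with disagreeing probe sets and, chosen after seeing the data, genes with near-identical copies. The counting code was run on simulated data in which every planted shift lay past the 2-fold limit. This checks the code only and not the results. Python 3.11.15, numpy 2.4.6, pandas 2.3.3, statsmodels 0.14.6 and matplotlib 3.10.9 were used.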

Additional observations from a re-analysis of the deposited data

Results flagged for a closer look

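Probe sets that no comparison used, because they carry no gene name here, also differed between the arrays. Of the 9010 with a value at or over the floor, 104 had a log2 difference of 1 or more and 126 of -1 or less, inhibitor minus none. Among the 7164 named genes above the floor, 45 and 75 passed the same limits. No gene was assigned to these probe sets.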

How the results depend on the processing

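No paired analysis was possible because the design has a single array in each condition, which also prevents leaving one out. Of 10 members at least 1.5-fold higher and 7 lower, the counts were 10 and 7 after either scaling, 11 and 8 without the filter, 8 and 5 with the 75th percentile filter, and 10 and 8 with averaged probe sets, where VIM read -0.61. Either scaling left 2 members past 2-fold upwards, without ANXA8. No member had probe sets 0.8 or more apart, and leaving out prefix-only genes moved no count. Leaving out genes with near-identical copies (chosen after seeing the data) left 2 members higher and 3 lower at 2-fold, and 8 higher and 4 lower at 1.5-fold, since ANXA8, ANXA8L1, ANXA2, LIMS1 and ACTR3C were removed. At 3-fold, 0 members were higher and 1 (TNS4) lower, against 6 and 14 of all genes. The 75th percentile filter left fewer genes: 24 of all genes were 2-fold higher, and 153 were higher and 147 lower at 1.5-fold. It gave group medians of -0.10 (core focal adhesion), 0.29 (PDZ-LIM and LIM adaptors) and 0.21 (contractile markers). The adaptor median was 0.088 without the filter, and that of contractile markers -0.056 with averaged probe sets. No member past 1.5-fold changed sign under these alternatives, nor did any group or list median of at least 0.121 in size. Medians nearer 0 did so under some of them, including those of core focal adhesion genes, adaptors, calpains, contractile markers and Hippo partners.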
